A study of Mus musculus with 8 samples.

Results

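Atf3, Trib3, Chac1 and Sesn2 are stress-induced genes of the integrated stress response, and their m6A-eCLIP sites were followed in a mouse pancreatic alpha cell line. Sites were taken as members when they lay inside the mm10 RefSeq span of 1 of the 4 genes. These spans held 28 of the 33774 sites in the table, 5 in Atf3, 7 in Trib3, 4 in Chac1 and 12 in Sesn2, and none of the 28 lay in the span of another gene. The 4 genes were chosen by their antibody (IP) counts, which were lower after Mettl14 knockdown, so the IP comparison of the genotypes is given below as a description, without a test.

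The αTC1-6 line is an immortalized alpha cell line that makes glucagon. Cells received METTL14 siRNA (M14KD) or scramble control siRNA (SCR); METTL14 and METTL3 together form the core of the enzyme that adds m6A to messenger RNA. In m6A-eCLIP, ultraviolet light crosslinks RNA to an anti-m6A antibody and the bound RNA is sequenced, while Input libraries sample RNA without that selection. There were 8 libraries: M14KD IP and M14KD Input, replicates 3 and 4 of each, and SCR IP and SCR Input, replicates 1 and 2 of each. All 8 come from 1 line, and nothing in the labels says that replicates were separate cultures or how long the siRNA acted, so the p-values cover the spread among these libraries, which may be technical.

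In the integrated stress response, kinases that sense a loaded endoplasmic reticulum, missing amino acids or other stress phosphorylate the translation factor eIF2α. General translation then drops while the transcription factor ATF4 is made in larger amounts, and ATF4, often with a C/EBP partner such as CHOP, switches on genes for amino acid supply and stress handling. Atf3 encodes a bZIP transcription factor downstream of ATF4, and Trib3 a pseudokinase that binds AKT and feeds back on ATF4 and CHOP. Chac1 encodes an enzyme that breaks down glutathione, and Sesn2 a leucine-binding protein that restrains the growth kinase complex mTORC1. Alpha cells sense amino acids and carry a heavy secretory load, and both bear on this pathway.

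The genes share a known input, so the 250 bases before each gene start are shown as RefSeq gives them on the GRCm38.p6 assembly, 5′ to 3′ on the gene's own strand. Capitals mark matches, on either strand, to TGATGNAA, the core of the composite C/EBP-ATF element, or to TGACGTNA, an ATF/CRE-type element. No match to one overlapped a match to the other.
Atf3, chr1:191183334-191183583, minus strand: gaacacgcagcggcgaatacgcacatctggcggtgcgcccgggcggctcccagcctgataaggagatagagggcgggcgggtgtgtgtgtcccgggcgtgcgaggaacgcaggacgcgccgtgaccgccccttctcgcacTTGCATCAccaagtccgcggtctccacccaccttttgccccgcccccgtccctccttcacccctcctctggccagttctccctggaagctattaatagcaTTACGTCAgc
Trib3, chr2:152344061-152344310, minus strand: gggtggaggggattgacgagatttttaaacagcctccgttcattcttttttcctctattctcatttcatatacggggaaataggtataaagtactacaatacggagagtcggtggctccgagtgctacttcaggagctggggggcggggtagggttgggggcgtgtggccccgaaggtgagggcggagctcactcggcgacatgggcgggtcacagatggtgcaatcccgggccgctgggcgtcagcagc
Chac1, chr2:119350992-119351241, plus strand: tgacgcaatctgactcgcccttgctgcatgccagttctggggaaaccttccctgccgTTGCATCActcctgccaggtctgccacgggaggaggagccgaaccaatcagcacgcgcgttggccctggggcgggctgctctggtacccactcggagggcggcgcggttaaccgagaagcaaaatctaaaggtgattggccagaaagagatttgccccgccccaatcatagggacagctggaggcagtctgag
Sesn2, chr4:132510457-132510706, minus strand: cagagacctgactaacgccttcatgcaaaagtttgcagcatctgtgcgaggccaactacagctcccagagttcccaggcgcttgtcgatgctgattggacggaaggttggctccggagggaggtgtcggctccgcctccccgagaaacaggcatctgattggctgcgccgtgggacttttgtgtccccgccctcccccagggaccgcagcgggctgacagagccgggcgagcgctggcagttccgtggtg

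Atf3 and Chac1 each held TTGCATCA, a match to TGATGNAA on the opposite strand, with its first base 110 bases before the Atf3 start and 193 bases before the Chac1 start. Atf3 also held TTACGTCA, beginning 10 bases before its start. In Trib3 the only match to TGATGNAA lay just past the start, at bases 15 to 22 of the transcript, and is shown in a window of 30 bases.
Trib3, chr2:152344028-152344057, minus strand: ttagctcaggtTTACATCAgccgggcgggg
These letters were found in neither orientation in the Sesn2 window, which says nothing about the factor itself. Among the 27025 gene starts with a full window, TGATGNAA occurred in the 250 bases before the start in 3.54% and in the window that adds the 50 bases after it in 4.07%. TGACGTNA occurred in 2.58% of the 250-base windows.

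All 28 sites lay toward the 3′ ends of the genes, between 126 and 1018 bases from the 3′ end of the RefSeq span. Exons were not used here, so these are genomic distances and the sites are not assigned to an exon, intron or untranslated region. Of the 28, 22 had another member site fewer than 100 bases away, and 72.5% of all sites had a neighbour that close. Neighbours may count the same reads. The closest pair, in Sesn2 at positions 132493494 and 132493497 of chromosome 4, had 818 and 712 counts in M14KD IP replicate 3. Gene sums below use all sites, so they may count a read more than once. Keeping 1 site per 100 bases left 15 sites, 3 in Atf3, 4 in Trib3, 3 in Chac1 and 5 in Sesn2.

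IP libraries held 10207383 to 10918559 counts over all sites, and Input libraries 3438530 to 3637740. Mettl14, the knockdown target, checked the labels: its 2 sites summed to 42 and 25 counts in M14KD IP, against 78 and 81 in SCR IP, and to 32 and 22 in M14KD Input, against 64 and 44 in SCR Input. Of 13 alpha cell markers 10 had sites, among them Gcg, the glucagon gene. Of the 11 markers of other islet cells and the 11 of cells outside the islet, 0 had a named site, in a table that lists sites only. The alpha cell markers summed to 97395 and 97738 CPM (counts scaled to the same library total) in M14KD Input, against 86465 and 84348 CPM in SCR Input, and to 37140 and 37173 CPM in M14KD IP, against 32245 and 31568 CPM in SCR IP. The summed level was higher in the M14KD libraries, in which the 4 stress genes were lower. Single markers went both ways, with 4 of 10 log2 fold changes below 0 in Input and 2 of 10 in IP, and their part in the results below was not tested.

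In Input, which reads RNA without the antibody, all 4 genes were lower in both M14KD libraries than in both SCR libraries, at 58.4% to 76.1% of the SCR level. Of all 6531 named genes, 20.5% lay lower without overlap in Input, and 26.1% in IP. The choice by IP counts may bear on the Input values too, since IP and Input are not fully separate measurements. None of the 4 passed edgeR's quasi-likelihood test after Benjamini-Hochberg adjustment over 5826 genes, and no other gene did either (0% called). At an unadjusted edgeR p under 0.05 there were 593 genes, 10.2% of those tested, and all 4 genes were among them. DESeq2 called 23 genes, none of the 4, although it gave no adjusted p for Atf3, Trib3 and Chac1. In bulk libraries, fewer cells that express a gene and less RNA per cell cannot be told apart.

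Atf3, the transcription factor, had the fewest reads. Its summed Input counts were 27 and 23 in M14KD, against 40 and 48 in SCR, or 7.08 ± 0.55 CPM in M14KD against 12.1 ± 1.51 CPM in SCR (SD, n = 2 each). The M14KD libraries held 58.4% of the SCR level, a log2 fold change of -0.77 (SE 0.26, 95% interval -1.33 to -0.22, edgeR adjusted p = 0.323). The interval shows how wide the error is at this depth.

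Trib3, the pseudokinase, had Input counts of 147 and 144 in M14KD, against 238 and 249 in SCR. These correspond to 41.3 ± 0.85 CPM in M14KD and 67.1 ± 1.87 CPM in SCR (SD, n = 2 each), so the groups lay far apart relative to their spread. The log2 fold change was -0.70 (SE 0.13, 95% interval -0.99 to -0.42, edgeR adjusted p = 0.117). Without SCR replicate 1 the log2 fold change was -0.73. That fit leaves SCR with 1 library, whose spread is assumed to be that of the other group, so no call is read from it.

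Chac1, the glutathione-degrading enzyme, had Input counts of 155 and 143 in M14KD, against 212 and 222 in SCR, or 42.2 ± 0.92 CPM in M14KD against 59.8 ± 1.70 CPM in SCR (SD, n = 2 each). The log2 fold change was -0.50 (SE 0.13, 95% interval -0.79 to -0.21, edgeR adjusted p = 0.245). Sesn2, the leucine-binding regulator, had Input counts of 570 and 500 in M14KD, against 721 and 724 in SCR, or 152 ± 8.69 CPM in M14KD against 199 ± 0.24 CPM in SCR (SD, n = 2 each). Its log2 fold change of -0.39 (SE 0.10, 95% interval -0.61 to -0.18, edgeR adjusted p = 0.189) was the smallest of the 4. With 1 site kept per 100 bases, Atf3 had -0.79 (SE 0.29, edgeR adjusted p = 0.337) and Trib3 -0.74 (SE 0.15, edgeR adjusted p = 0.0521). In that fit Chac1 had -0.45 (SE 0.15, edgeR adjusted p = 0.267) and Sesn2 -0.30 (SE 0.12, edgeR adjusted p = 0.374).

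**Figure D1:**
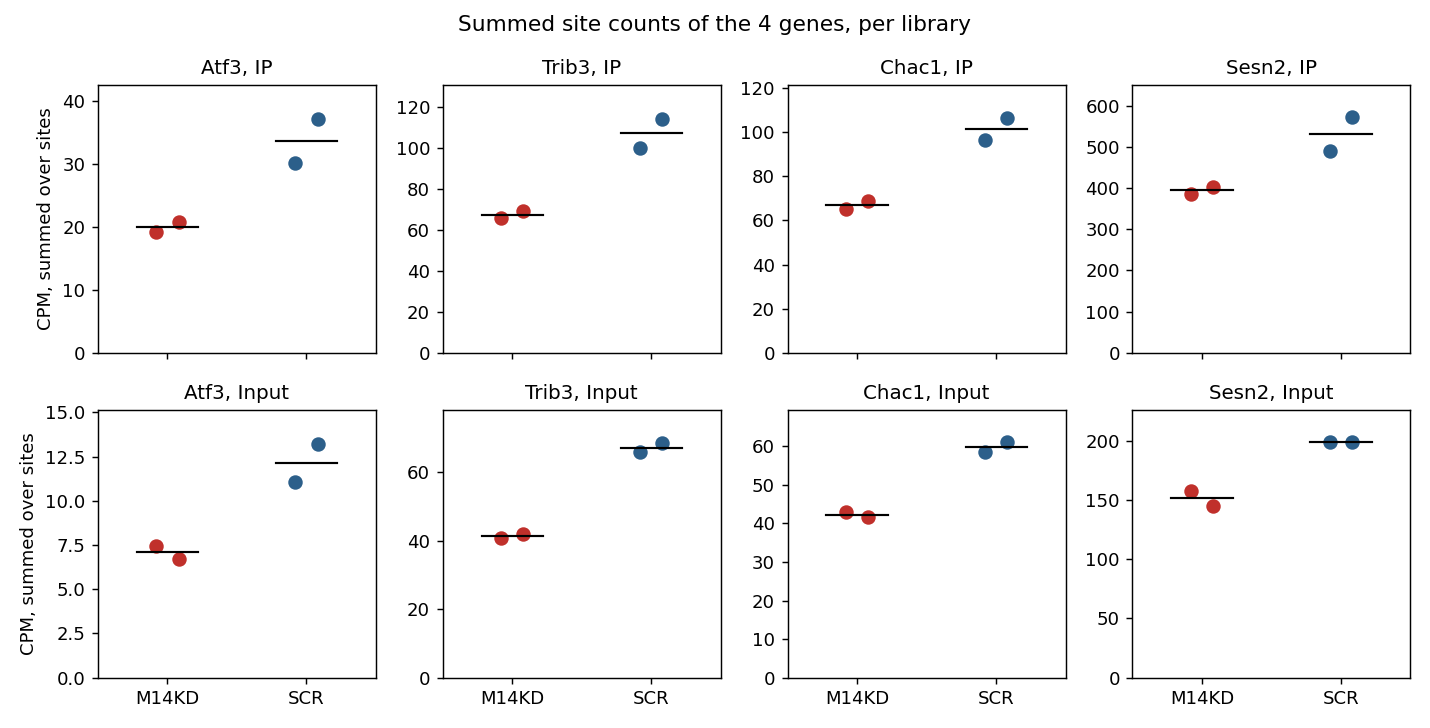
Summed site counts of each gene in every library, in CPM, with IP above and Input below; points are libraries, bars are means of 2, and each panel has its own axis from 0. In all 8 panels both M14KD libraries lie below both SCR libraries, for example 40.7 and 41.9 CPM in M14KD against 65.8 and 68.4 CPM in SCR for Trib3 Input.

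In IP, the measure that chose the genes, the values were close to those in Input. Atf3 had 202 and 212 IP counts in M14KD, against 329 and 392 in SCR, and Trib3 had 694 and 705 in M14KD, against 1090 and 1209 in SCR. Chac1 had 687 and 704 in M14KD, against 1053 and 1125 in SCR, and Sesn2 had 4073 and 4121 in M14KD, against 5344 and 6044 in SCR. For each gene the M14KD libraries were close together and the SCR libraries were higher and wider apart.

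In CPM, M14KD IP held 59.4% of the SCR IP level for Atf3, 63.0% for Trib3, 66.1% for Chac1 and 74.4% for Sesn2. The fitted IP log2 fold changes were -0.73 (SE 0.13), -0.64 (SE 0.10), -0.57 (SE 0.09) and -0.40 (SE 0.08), for Atf3, Trib3, Chac1 and Sesn2. Just outside the choice, Jdp2, a bZIP protein related to ATF3, had the lowest IP value among the other transcription factors and stress effectors listed, -0.28 (SE 0.08), while values in the list of amino acid genes reached -0.63. The size rested partly on the SCR libraries: without SCR replicate 2, Atf3 had -0.58 and Sesn2 -0.30, and without SCR replicate 1 they had -0.88 and -0.52.

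The change of IP over Input between the genotypes, which asks whether antibody reads differed beyond the RNA reads, was near 0 for every gene. It was 0.03 (SE 0.29, 95% interval -0.59 to 0.65) for Atf3 and 0.04 (SE 0.16, -0.30 to 0.38) for Trib3 on the log2 scale. It was -0.09 (SE 0.16, -0.42 to 0.25) for Chac1 and -0.03 (SE 0.13, -0.30 to 0.25) for Sesn2. These values contain the IP comparison that chose the genes and carry no test, and the interval was widest for Atf3, the gene with the fewest reads. The scaling uses site counts, and the median of all genes was 0.00. A loss equal at every site therefore cannot be seen in these values. IP and Input libraries of the same replicate number deviated together across genes, with correlations of 0.41 for replicates 1 and 2 and 0.27 for replicates 3 and 4, so the IP and Input values are not fully separate measurements.

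The antibody did not enrich the 4 genes alike. In M14KD the IP over Input log2 ratio was 0.81 (SE 0.22, edgeR adjusted p = 0.00393) for Atf3 and 0.69 (SE 0.09, edgeR adjusted p = 6.80e-06) for Sesn2. In SCR it was 0.78 (SE 0.18, edgeR adjusted p = 0.00127) for Atf3 and 0.72 (SE 0.09, edgeR adjusted p = 3.52e-06) for Sesn2. Both genes were thus enriched in each genotype, which 35.5% of the 6379 tested genes were in M14KD and 35.2% in SCR. A further 35.6% of genes were depleted in M14KD and 34.7% in SCR, so 71% in M14KD and 69.9% in SCR were called in either direction. Without M14KD replicate 4 the Atf3 ratio in M14KD was 0.65 and no longer passed (edgeR adjusted p = 0.097).

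Trib3 and Chac1 lay near the middle of all genes, whose median ratio was 0.02 in M14KD and 0.04 in SCR. Trib3 had 0.02 (SE 0.12, 95% interval -0.23 to 0.28) in M14KD and -0.02 (SE 0.11, 95% interval -0.25 to 0.21) in SCR. Chac1 had -0.02 (SE 0.12, 95% interval -0.27 to 0.23) in M14KD and 0.07 (SE 0.11, 95% interval -0.16 to 0.30) in SCR. A ratio of 0 here depends on TMM scaling, which centres the libraries on each other. With column totals alone the median of all genes moved to 0.73 in M14KD and 0.75 in SCR, and enriched genes made up 78.2% of the called genes in M14KD and 79% in SCR, where TMM gave 49.9% in M14KD and 50.3% in SCR. All 4 genes then passed as enriched, as did 61.4% of all genes tested in M14KD and 62.6% in SCR, with Trib3 at 0.73 in M14KD and 0.70 in SCR and Chac1 at 0.69 in M14KD and 0.78 in SCR.

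Ordered by CPM, Atf3, Chac1 and Sesn2 had SCR IP highest, then M14KD IP, SCR Input and M14KD Input. For Trib3 the middle groups were level, at 65.8 and 69.1 CPM in M14KD IP and 65.8 and 68.4 CPM in SCR Input, so these neighbours did not differ beyond their spread. CPM in IP and in Input refer to different totals, so this order describes shares of each library.

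Sites of 1 gene differed widely in enrichment. Of the 28 sites, 11 were enriched in M14KD (33.8% of all sites tested) and 10 in SCR (34% of all sites), while 7 were depleted in each genotype (33.1% of all sites in M14KD and 33.4% in SCR), at an edgeR adjusted p threshold of 0.05. In either direction 66.9% of all sites were called in M14KD and 67.4% in SCR. In Sesn2 the 6 enriched sites were the 6 farthest from the 3′ end, 690 to 817 bases from it, in both genotypes, and the 3 depleted sites lay 217 to 391 bases from it. A gene's most heavily read site is the one with the highest mean count over the 8 libraries. IP libraries held more counts, so this choice leans toward sites with high ratios. At position 132493494, the most heavily read site of Sesn2, the IP over Input log2 ratio was 1.65 (SE 0.15) in M14KD and 1.97 (SE 0.14) in SCR. At position 132493195, 391 bases from the 3′ end, it was -1.39 (SE 0.20) in M14KD and -1.58 (SE 0.18) in SCR.

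In Trib3 the most heavily read site, at position 152337680 of chromosome 2 and 255 bases from the 3′ end, had ratios of 1.24 (SE 0.24) in M14KD and 1.36 (SE 0.20) in SCR. In SCR Input this site held 7.30 CPM, the lowest of the 7 Trib3 sites. Of the 7 Trib3 sites 3 were depleted in each genotype. The lowest ratios were at position 152337885, 460 bases from the 3′ end, with -2.15 (SE 0.31) in M14KD and -1.71 (SE 0.25) in SCR. The near-zero ratio of the Trib3 sum is thus made of enriched and depleted positions.

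Chac1 had 1 enriched and 1 depleted site of 4. The site farthest from the 3′ end, at position 119353467 of chromosome 2, had 0.70 (SE 0.18) in M14KD and 0.76 (SE 0.16) in SCR. The site nearest to it, at position 119354190, had -1.73 (SE 0.26) in M14KD and -0.96 (SE 0.24) in SCR. All 5 Atf3 sites had ratios above 0 in both genotypes, from 0.17 to 1.52 in M14KD and from 0.56 to 1.42 in SCR, and 2 of the 5 passed in each genotype.

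**Figure D2:**
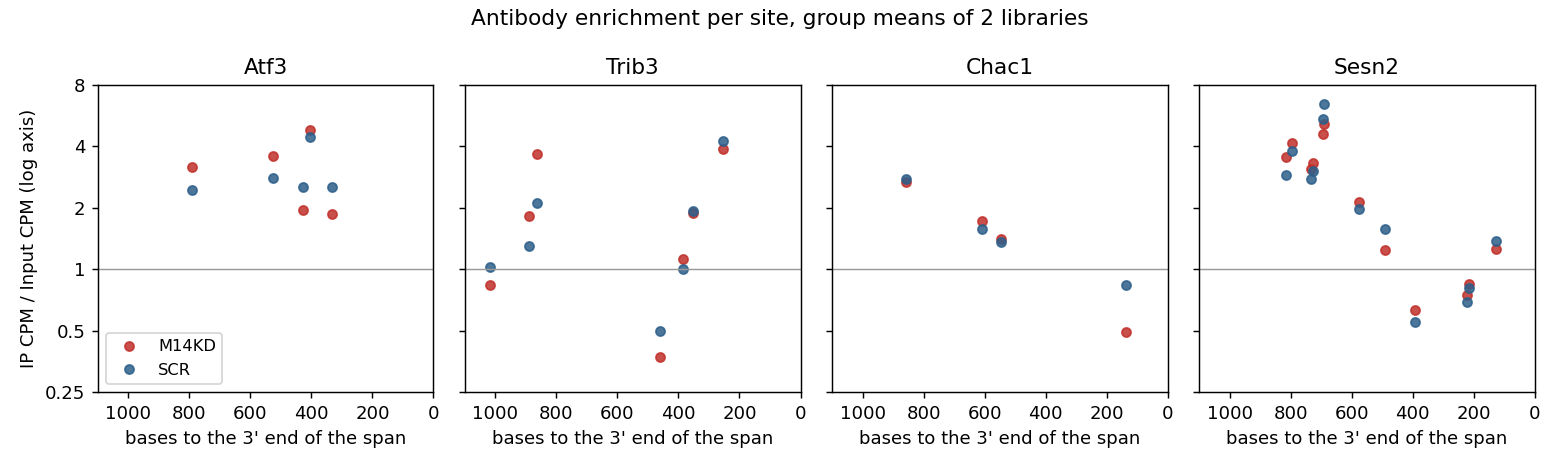
Ratio of IP to Input CPM at each of the 28 sites (log axis) against the distance in bases to the 3′ end of the RefSeq span, which lies at the right of each panel; red points are M14KD and blue points SCR, each a ratio of means of 2 libraries. CPM ratios are not TMM scaled. Within Sesn2, the sites 690 to 817 bases from the end lie highest in both genotypes, and red and blue points follow each other along each gene.

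Site by site, all 28 IP log2 fold changes were below 0, and at all 28 both M14KD libraries lay below both SCR libraries in CPM, which 25% of all sites did, and the edgeR test called 0.63% of all sites; the choice of the genes bears on this count, and nothing is read from it. Input did not choose the genes, but same-numbered IP and Input libraries deviated together, so the choice may bear on its counts too. In Input both M14KD libraries lay below both SCR libraries at 22 of the 28 sites, where 19.8% of all sites did so. These were 4 of 5 in Atf3, 7 of 7 in Trib3, 2 of 4 in Chac1 and 9 of 12 in Sesn2. With 1 site per 100 bases it was 12 of 15. Both M14KD Input libraries lay above both SCR Input libraries at 0 of the 28 sites, where 18.3% of all sites did so. Neighbouring sites may share reads and sites of 1 gene share its RNA, so the 28 are not separate pieces of evidence.

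For the Input test 23 of the 28 sites had enough counts. All 5 Atf3 sites fell under the filter, with 1 to 13 Input counts per library. The 23 had log2 fold changes from -1.63 to -0.02, and none passed the edgeR test, which called 0.0929% of 30147 sites (0.0232% lower and 0.0697% higher in M14KD). DESeq2 called none of them either, beside 35 of all 30147 sites. Of the 23, 11 had an unadjusted edgeR p under 0.05, as did 8.69% of all sites tested.

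The lowest Input value was at Trib3 position 152338289, a site picked out after its values were seen. It had 12 and 8 Input counts in M14KD, against 37 and 28 in SCR, and its log2 fold change was -1.63 (SE 0.35, edgeR adjusted p = 0.0529). With libraries scaled by column totals it passed (edgeR adjusted p = 0.0346). The neighbour 25 bases away, at 152338314, had -1.10 (SE 0.32), while the other 5 Trib3 sites ranged from -0.58 to -0.38. In IP the site had 101 and 115 counts in M14KD, against 183 and 222 in SCR, a log2 fold change of -0.83 (SE 0.15). Its change of IP over Input, 0.80 (SE 0.40), was the highest of the 28 sites.

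Chac1 position 119354190 went the other way, with the lowest IP value of its gene and level Input. Its IP counts were 43 and 60 in M14KD, against 96 and 91 in SCR, a log2 fold change of -0.78 (SE 0.21). Its Input counts were 39 and 32 in M14KD, against 47 and 28 in SCR, so the Input groups overlapped (log2 fold change -0.02, SE 0.26). The change of IP over Input there was -0.77 (SE 0.34), the lowest of the 28 sites, and 0 of 33356 sites passed for this contrast by edgeR (1242 had an unadjusted p under 0.05). The other 3 Chac1 sites had changes of IP over Input from -0.06 to 0.12.

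The remaining sites at the ends of each gene's IP range are given here. In Atf3, IP log2 fold changes ran from -1.07 (SE 0.25) at position 191170723 of chromosome 1 to -0.50 (SE 0.20) at 191170823, its most heavily read site. In Trib3 they ran from -0.94 (SE 0.26) at 152337885 to -0.39 (SE 0.17) at 152337810, with -0.70 (SE 0.12) at the most heavily read site. Chac1 position 119353718 had its gene's highest value, -0.51 (SE 0.12), and the most heavily read site had -0.57 (SE 0.11).

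In Sesn2, IP values ran from -0.49 (SE 0.11) at position 132493295 of chromosome 4 to -0.14 (SE 0.17) at 132493195, with -0.41 (SE 0.09) at the most heavily read site. That last site had 818 and 880 IP counts in M14KD, against 1131 and 1244 in SCR. Its Input counts were 66 and 46 in M14KD, against 66 and 59 in SCR, which overlap.

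**Figure D3:**
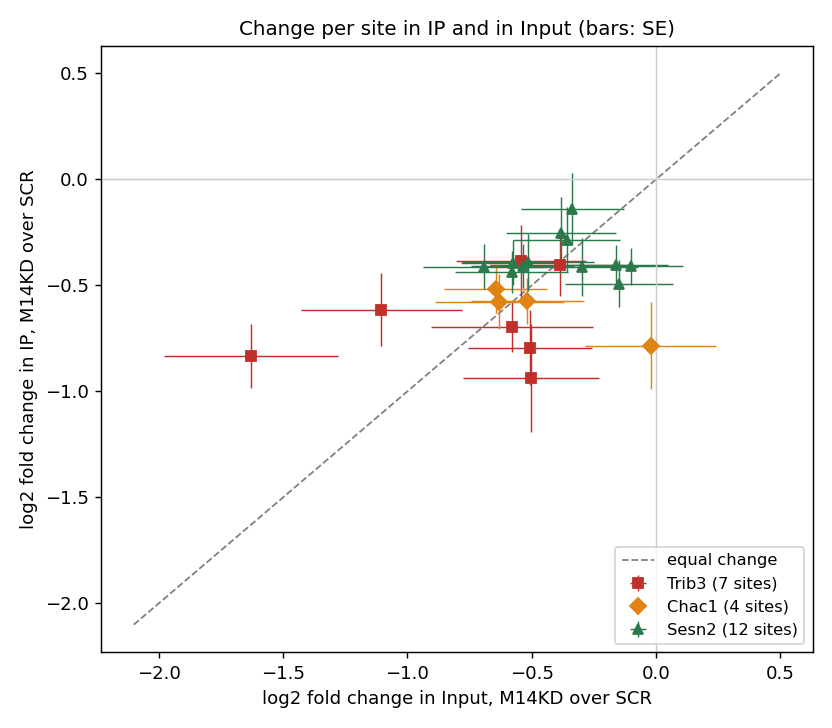
Log2 fold change of M14KD over SCR in IP (vertical axis) and in Input (horizontal axis) at the 23 sites of Trib3, Chac1 and Sesn2 with an Input fit; bars are standard errors and the dashed line marks equal change. Most sites lie near the line; Trib3 at 152338289 (-1.63 in Input, -0.83 in IP) and Chac1 at 119354190 (-0.02 in Input, -0.78 in IP) lie farthest from it on opposite sides.

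Other genes of the pathway were taken from lists and read in the same fits. None of these other genes passed in Input or in IP by edgeR, as no gene did among all tested (0% called in either). In IP 900 genes had an unadjusted p under 0.05 and DESeq2 called 45. Among all genes 50.6% of Input values and 47.6% of IP values were below 0, with medians of 0.00 and 0.01. The list of kinases, eIF2, eIF2B and their regulators, with Atf4, had 12 of 22 genes with sites. Of these, 4 of 12 were below 0 in Input (median 0.08) and 6 of 12 in IP (median 0.00). Atf4, the central transcription factor, had 915 ± 6.22 CPM in M14KD Input and 1009 ± 82.8 CPM in SCR Input (SD, n = 2 each), with log2 fold changes of -0.14 (SE 0.08) in Input and -0.12 (SE 0.07) in IP. Eif2ak3, the kinase PERK of the endoplasmic reticulum, had 0.07 (SE 0.15) in Input, and Eif2b1, a subunit of the eIF2B exchange factor, had 0.16 (SE 0.10). Among the phosphatase subunits that reverse eIF2α phosphorylation, Ppp1r15b had -0.31 (SE 0.12) in Input and Ppp1r15a, with 1 site and a mean of 27.5 counts, had 0.25 (SE 0.39).

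Leaving out the 4 genes, the transcription factors and stress effectors had 7 of 10 tested values below 0 in Input (median -0.20) and 9 of 11 in IP (median -0.21). Ddit3, which encodes CHOP, had Input counts of 140 and 104 in M14KD, against 152 and 186 in SCR, and a log2 fold change of -0.43 (SE 0.17, edgeR adjusted p = 0.398). Cebpb, a C/EBP partner factor, had -0.17 (SE 0.13), and Ddit4, an inhibitor of mTORC1, had 0.06 (SE 0.09).

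Amino acid, one-carbon and aminoacyl-tRNA synthetase genes, known ATF4 targets, had 19 of 23 values below 0 in Input (median -0.28) and 21 of 23 in IP (median -0.29). Asns, asparagine synthetase, had Input counts of 2287 and 2238 in M14KD, against 2867 and 3023 in SCR, and a log2 fold change of -0.34 (SE 0.08, edgeR adjusted p = 0.189). Input values were -0.47 (SE 0.09) for Slc7a5, the large neutral amino acid transporter, -0.37 (SE 0.08) for Aldh18a1, an enzyme of proline synthesis, and -0.27 (SE 0.08) for Sars, a seryl-tRNA synthetase. The lists were chosen with earlier results of these data known, so these counts are a description.

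The inositol-requiring and ATF6 arms of the unfolded protein response, with the chaperones of the endoplasmic reticulum, had 6 of 16 values below 0 in Input (median 0.07) and 7 of 16 in IP (median 0.00). Hspa5, the chaperone BiP, had 0.21 (SE 0.09) in Input, Manf, a secreted stress protein, 0.37 (SE 0.07), and Pdia3 and Pdia4, disulfide isomerases, 0.26 (SE 0.09) and 0.06 (SE 0.08). Xbp1, the transcription factor of the inositol-requiring arm, had -0.12 (SE 0.11).

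Relatives of the 4 genes had a median Input value of -0.05 over 9 genes, 6 of them below 0, and a median of -0.05 in IP, with 7 of 9 below 0. Trib1, a pseudokinase of the Trib3 family, had -0.02 (SE 0.11) in Input, and the AP-1 subunits Jun and Jund had -0.15 (SE 0.15) and -0.41 (SE 0.08). Genes of the p53 and mTORC1 pathways around Sesn2 had medians of -0.03 in Input, with 8 of 14 below 0, and -0.04 in IP, with 10 of 14 below 0. Rragc, a Rag GTPase of mTORC1 signalling, had 0.00 (SE 0.08) in Input, Keap1, a sensor of oxidative stress that Sesn2 acts on, -0.05 (SE 0.09), and Mdm2, the ubiquitin ligase of p53, 0.04 (SE 0.10).

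**Figure D4:**
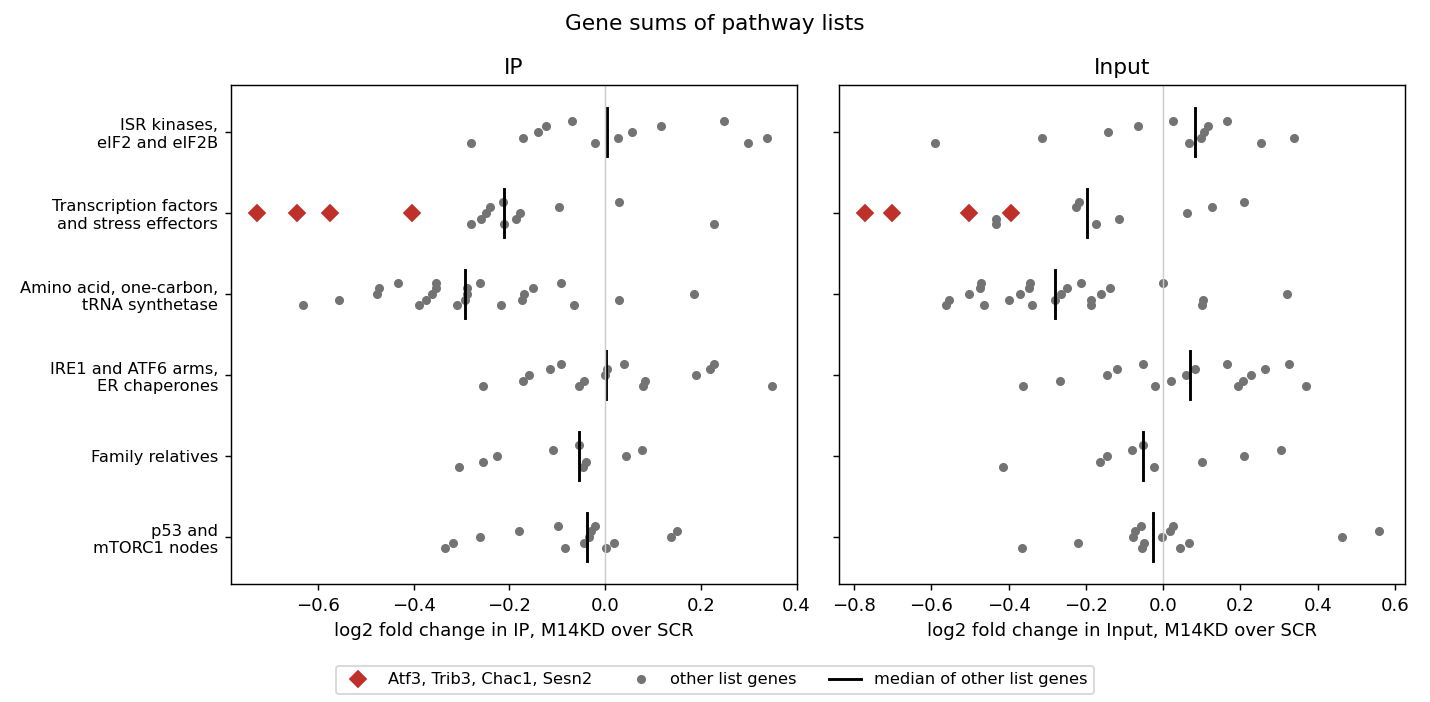
Log2 fold change of M14KD over SCR for gene sums in IP (left) and Input (right), by pathway list; each grey point is a gene, black bars are medians of the list without the 4 genes, and red diamonds are Atf3, Trib3, Chac1 and Sesn2. The medians of the effector list and of the amino acid list lie left of 0, at -0.20 and -0.28 in Input. Those of the list of kinases, eIF2 and eIF2B and of the chaperone list lie at 0.08 and 0.07.

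The genes most like each of the 4 were found by the root mean square difference of log2 CPM deviations over the 8 libraries, among 4580 other genes with a mean count of at least 100. The measure includes the IP libraries that chose the genes, so it is a description. It spans IP and Input, so it takes in the IP over Input ratios and does not compare the knockdown changes alone. In SCR these log2 ratios were 0.78 for Atf3, 0.72 for Sesn2, -0.02 for Trib3 and 0.07 for Chac1. For Trib3 the nearest was Chac1, at 0.08 against a median of 0.50 for all genes, followed by Vgf, a granule protein (0.10), and the cationic amino acid transporter Slc7a1 (0.13). For Chac1 the nearest were Trib3 (0.08), Slc7a1 (0.08) and Aldh18a1 (0.10). For Atf3 they were Slc7a5 (0.15), Lrfn3, a synaptic adhesion protein (0.18), and Sesn2 (0.19), and for Sesn2 they were Anapc1, a subunit of the anaphase-promoting complex (0.08), Jund (0.09) and Jdp2 (0.09). Trib3 and Chac1 were each other's nearest gene, whereas Sesn2 ranked 3 for Atf3 and Atf3 ranked 194 for Sesn2. The other pairings ranked further down: Trib3 ranked 654 and Chac1 648 for Atf3, and Trib3 ranked 1810 and Chac1 1528 for Sesn2. Atf3 ranked 1160 and Sesn2 967 for Trib3, and Atf3 ranked 1711 and Sesn2 1224 for Chac1.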

How the data were processed

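The authors deposited 1 table of whole-number read counts per site, not normalized, with 1 column per library (0 columns unused). STAR, cutadapt and UMI-tools, with the mm10 build, are named per the submitters' processing notes. No version, site caller or counting window was found in those notes or the labels. Sites were named by RefSeq spans of GRCm38.p6: 31928 of 33774 lay in 1 gene, in 6531 genes. Counts per site and summed per gene were tested with edgeR 4.0.16 (filterByExpr, TMM, quasi-likelihood F-test, Benjamini-Hochberg over all features, threshold 0.05) in R 4.3.3; DESeq2 1.42.0 was an alternative. Genotypes were compared within Input or IP libraries, and IP over Input in 1 model of all 8. Each SE was recovered from the fold change and its F statistic. The tests were checked on simulated data. Members, lists, motifs and tests were chosen with earlier results of these data known.

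Named were the 4 genes, per gene the most heavily read site and those with the lowest and highest IP change, fixed pathway genes, the 3 most counted genes of each list, and the 3 most like genes. Same-numbered IP and Input libraries deviated together across 4581 genes (correlations 0.41 and 0.27, the same within a group of 2). The reported fits left this pairing out, and a fit with the replicate number as a block was an alternative. Replicate pairs had a chi-square over degrees of freedom of 1.38 to 2.56, above sampling noise, and were kept as separate libraries. Intervals cover the spread between libraries as the model estimates it.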

Additional observations from a re-analysis of the deposited data

How the results depend on the processing

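Across 11 alternatives each, the Input log2 fold changes of the 4 genes stayed below 0, from -0.90 to -0.63 for Atf3, -0.74 to -0.66 for Trib3, -0.54 to -0.45 for Chac1 and -0.45 to -0.30 for Sesn2. In the fits that kept 2 libraries per group, 0 of the 4 genes were called lower in Input. Of the 28 sites 1 was called when libraries were scaled by column totals, as were 30 of all 30147. With that scaling 4 of the 4 genes and 18 sites were enriched in M14KD and 4 genes and 20 sites in SCR, beside 61.4% of all genes and 58.6% of all sites in M14KD and 62.6% and 59.1% in SCR, since it moved the median ratio of all genes up. When a replicate was left out, the Atf3 ratio ranged from 0.65 to 0.96 in M14KD and from 0.77 to 0.78 in SCR. That of Sesn2 ranged from 0.58 to 0.80 in M14KD and from 0.62 to 0.815 in SCR. The uncalled IP over Input ratio of Trib3 in SCR turned to 0.70 with column totals, 0.15 with 1 site per 100 bases, and ranged from -0.073 to 0.033 when a replicate was left out; its M14KD ratio ranged from -0.018 to 0.051. That of Chac1 in M14KD turned to 0.69 with column totals and ranged from -0.11 to 0.059 when a replicate was left out. With the replicate number as a block, the paired fit left the calls of the 4 genes as they were. Atf3 had 0.80 in M14KD and 0.78 in SCR, and Sesn2 0.69 in M14KD and 0.72 in SCR. In that fit 12 of the 28 sites were enriched in M14KD and 10 in SCR, beside 11761 and 11870 of all 33356 sites. No pairing was possible between M14KD and SCR, which share no replicate number. The change of IP over Input ranged from -0.17 to 0.19 over the 4 genes. All scalings use site counts, so a loss equal at every site cannot be seen, and Atf3 has too few Input reads to test its sites singly. The causes of the moves not explained by the scaling were not tested.

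Whole-table counts of called Input genes were 0 with edgeR, 23 with DESeq2, 3 with 1 site per 100 bases, 1 with column totals, 1 with all 8 libraries in 1 model, 40 without replicate 1 and 2 without replicate 2. Called Input sites numbered 28, against 0 with no filter on low counts, 40 without replicate 1, 4 without replicate 2 and 0 without replicates 3 or 4. Called IP genes numbered 0, against 45 with DESeq2, 1 each with DESeq2 size factors, column totals and 1 site per 100 bases, 11 with all 8 libraries in 1 model, 187 without replicate 1, 27 without replicate 2, 11 without replicate 3 and 169 without replicate 4.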
